A study of Mus musculus with 27 samples.

Results

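The Rbfox, Nova and Elavl genes encode 3 families of RNA-binding proteins that regulate neural splicing, and their RNA was followed here through 3 mouse cell types and 3 subcellular fractions. The 9 genes were taken by symbol, with GENCODE vM21 names for the Ensembl IDs of the deposited tables: Rbfox1, Rbfox2 and Rbfox3, Nova1 and Nova2, and Elavl1, Elavl2, Elavl3 and Elavl4. All 9 are in the count table, which lists 37332 genes, and in the TPM table, which lists 53379. All 9 also passed the filter on low counts and were among the 18249 genes tested.

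The cells were the embryonic stem cell line E14 (mESC), grown on gelatin with LIF, a neural progenitor line made in the submitters' laboratory (mNPC), grown with B27 lacking vitamin A and daily EGF and FGF, and primary cortical neurons (mCtx) after 5 days in culture on poly-L-lysine. Each was divided into chromatin-associated, soluble nucleoplasmic and cytoplasmic RNA in biological triplicate, which gave 27 libraries in 9 groups. RNA over 200 nt was depleted of ribosomal RNA and sequenced from both ends. The labels name no transgene and no treatment that sets the groups apart. The stem cells and the progenitors are each 1 line, so their replicates are cultures of a single line, and the number of animals behind the neuron cultures is not given in the sources used here.

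Proteins of the Rbfox family bind the hexamer UGCAUG and, depending on its place beside an exon, promote inclusion or skipping of that exon. Rbfox3 is the antigen known as NeuN, a standard mark of mature neurons. Nova proteins bind clusters of YCAY through their KH domains and were first described as antigens in a paraneoplastic neurological disease. Elavl proteins, also called Hu proteins, bind AU-rich and U-rich RNA through RNA recognition motifs and act on RNA stability, translation and splicing. Elavl1 (HuR) is made in most tissues, whereas Elavl2 (HuB), Elavl3 (HuC) and Elavl4 (HuD) are known mainly from neurons.

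Because members of 1 family have related coding sequences, the stretch in which each family is most alike is printed from the vM21 transcripts (GRCm38), to show how far a read can tell the members apart. Each is a window of 75 coding bases, 5′ to 3′, and capitals mark the positions at which the family's members differ. Within Rbfox, 17 of the 75 positions varied.
Rbfox1: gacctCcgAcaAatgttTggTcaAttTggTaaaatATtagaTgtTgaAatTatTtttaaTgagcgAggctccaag
Rbfox2: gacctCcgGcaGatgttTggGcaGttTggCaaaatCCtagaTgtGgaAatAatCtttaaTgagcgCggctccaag
Rbfox3: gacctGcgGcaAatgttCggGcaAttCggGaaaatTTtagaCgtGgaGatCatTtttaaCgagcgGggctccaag
In the Nova pair, 13 of 75 positions varied.
Nova1: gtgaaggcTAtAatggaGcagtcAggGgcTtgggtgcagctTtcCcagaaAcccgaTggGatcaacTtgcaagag
Nova2: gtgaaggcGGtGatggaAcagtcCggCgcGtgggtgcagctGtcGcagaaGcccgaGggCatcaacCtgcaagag
Among the Elavl genes, 18 of 75 positions varied.
Elavl1: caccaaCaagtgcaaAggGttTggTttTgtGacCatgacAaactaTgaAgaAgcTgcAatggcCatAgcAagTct
Elavl2: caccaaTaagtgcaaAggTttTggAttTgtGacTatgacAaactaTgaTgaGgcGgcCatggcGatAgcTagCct
Elavl3: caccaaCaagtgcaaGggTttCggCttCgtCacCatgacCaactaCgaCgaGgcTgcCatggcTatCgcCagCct
Elavl4: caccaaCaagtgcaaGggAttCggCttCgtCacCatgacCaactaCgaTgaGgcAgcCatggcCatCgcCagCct

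Over the aligned coding bases, with gaps left out, the identity between members of a family ran from 64.9% for Rbfox2 and Rbfox3 to 77.0% for Elavl3 and Elavl4. The longest run of bases shared by any pair within a family was 29, found in the pair Rbfox1 and Rbfox2 and in the pair Elavl3 and Elavl4, while the reads were 100 bp long. No pair of members therefore shared a stretch as long as a read in the transcripts compared. Other genes that overlap a member's span held at most 0.422% as many counts as the member, the highest being Gm11749 inside Rbfox3.

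The genes differ in how much of their counts can come from introns, since the deposited counts cover whole gene spans. The spans in mm10 run from 37.0 kb for Elavl3 (chr9:22015005-22052023, minus strand) and 39.4 kb for Nova2 (chr7:18925888-18965319, plus strand) to 421.8 kb for Rbfox3 (chr11:118489762-118911597, minus strand) and 603.3 kb for Rbfox1 (chr16:6809222-7412479, plus strand). Elavl1 covers 40.3 kb (chr8:4284782-4325100), Nova1 124.3 kb (chr12:46694517-46818775), Elavl4 148.2 kb (chr4:110203722-110351909), Elavl2 150.0 kb (chr4:91250763-91400785) and Rbfox2 228.1 kb (chr15:77078990-77307053), all on the minus strand. For Rbfox1 the counted window is shorter than the gene in vM21, which begins at 5885355 and spans 1526.2 kb, so RNA from the upstream part was not counted.

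Total counts ran from 11249862 to 19871198 per library. Levels compared between groups are in CPM, counts scaled to the effective library size, and levels compared between genes are in TPM, which the authors deposited and which divides by transcript length. The error given with a log2 fold change is its standard error, SE. Tests on counts used the quasi-likelihood F-test of edgeR, with p adjusted by Benjamini-Hochberg over 18249 genes, and a gene passed, or rose or fell, where this was under 0.05. Values describe shares of the RNA within a fraction, so fewer cells of a type and less RNA per cell cannot be told apart. The p-values measure the spread between replicate cultures. All 9 groups share 1 estimate of that spread per gene, so libraries outside a comparison also affect its p-values. In cytoplasm, the pluripotency markers (Pou5f1, Nanog and others) were all at 1 TPM or more in mESC, 10 of 10, and only Sox2 of the 10 was in mNPC and mCtx. Neuron markers, a list that holds Rbfox3 itself, were at 1 TPM or more for 4 of 10 in mESC, 3 of 10 in mNPC and 10 of 10 in mCtx, with summed levels of 45.2 to 76.2, 49.3 to 77.2 and 940 to 949 TPM per library. Progenitor markers were all at 1 TPM or more in mCtx too, at a sum of 295 to 367 TPM against 1433 to 1751 in mNPC. In mCtx cytoplasm the astrocyte markers, 3 of 6 at 1 TPM or more, summed to 12.3 to 14.2 TPM, those of microglia to 1.68 to 2.23, of oligodendrocytes to 1.97 to 2.36 and of vascular cells to 0.19 to 0.28. In the other mCtx fractions the sums were higher: astrocyte markers reached 59.3 to 90.9 TPM in chromatin (Slc1a2 at 66.6) and 45.7 to 56.1 in nucleoplasm, and oligodendrocyte markers 7.17 to 10.9 and 6.6 to 9.25. Interneuron markers summed to 0.24 to 0.66 TPM in mNPC cytoplasm and 97.7 to 102 in that of mCtx, with Sst at 76.5 and 6 of 10 at 1 TPM or more. The part of these other cells in the results was not tested.

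Rbfox1 had few counts in the stem cells and progenitors and a very high level in the neurons. In mESC it was at 3.9, 9.71 and 6.3 CPM in the 3 chromatin libraries, and in mNPC at 5.99, 5.69 and 6.7. In mCtx chromatin it was at 6490, 7114 and 7298 CPM. The neuron libraries lay far above the others, and the mESC and mNPC chromatin libraries overlapped. In cytoplasm its counts were 2, 5 and 5 reads in mESC and 0, 4 and 3 in mNPC, against 3040, 3228 and 2807 reads in mCtx, or 190, 193 and 220 CPM. The deposited TPM lists Rbfox1 at 0 in all 6 cytoplasm libraries of mESC and mNPC and at 16.5, 17.4 and 18.3 in those of mCtx.

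Within the neurons, the counts of Rbfox1 fell away from chromatin outward, from 6967 ± 424 CPM in chromatin to 1802 ± 271 in nucleoplasm and 201 ± 16.4 in cytoplasm (mean ± SD, n = 3). The 3 groups did not overlap. In TPM the 3 fractions were much closer, at 27.6 ± 4.81, 28.3 ± 2.03 and 17.4 ± 0.87, and chromatin and nucleoplasm overlapped. Rbfox1 has the longest counted span of the 9 genes.

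Rbfox2, the member known from many tissues, had the highest TPM of the family in each of the 9 groups. The mESC cytoplasm libraries had 134, 155 and 200 CPM, those of mNPC 78.8, 78.7 and 64.3, and those of mCtx 609, 670 and 629. The 3 cell types did not overlap there, with the progenitors lowest and the neurons highest. In chromatin the order was the same, with 531 ± 133 CPM in mESC, 240 ± 12.9 in mNPC and 1088 ± 27.5 in mCtx. It made up 95.6% to 99.1% of the summed Rbfox TPM in the 6 groups of mESC and mNPC and 67.9% to 72.8% in the 3 mCtx groups, as means over 3 libraries. In the cytoplasm of neurons, Rbfox1 made up 21.1% ± 1.03 and Rbfox3 8.76% ± 0.82 of the family's TPM.

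The same shares taken from counts per kb of counted span gave another picture inside the neuron nucleus, a measure added after seeing the data. There Rbfox1 held 65.1% ± 1.13 of the Rbfox signal in chromatin, 44.5% ± 3.2 in nucleoplasm and 10.1% ± 0.857 in cytoplasm. Rbfox2 held 26.9% ± 0.898, 50% ± 3.22 and 84.9% ± 1.19. On this scale the leading Rbfox gene of neurons thus differs between chromatin and cytoplasm, while on the TPM scale Rbfox2 leads in all 3 fractions.

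Rbfox3, the NeuN gene, was low in both dividing cell types and high in neurons, like Rbfox1 but with some signal in stem cells. Its cytoplasmic level was 3.98, 2.44 and 1.21 CPM for mESC, 1.26, 1.46 and 0.936 for mNPC, and 65.6, 66.3 and 73.3 for mCtx. The mESC and mNPC libraries overlapped and the mCtx libraries stood apart. In chromatin the levels were 12.3 ± 3.45, 4.82 ± 0.776 and 591 ± 14.6 CPM, and there all 3 groups were separate.

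**Figure D1:**
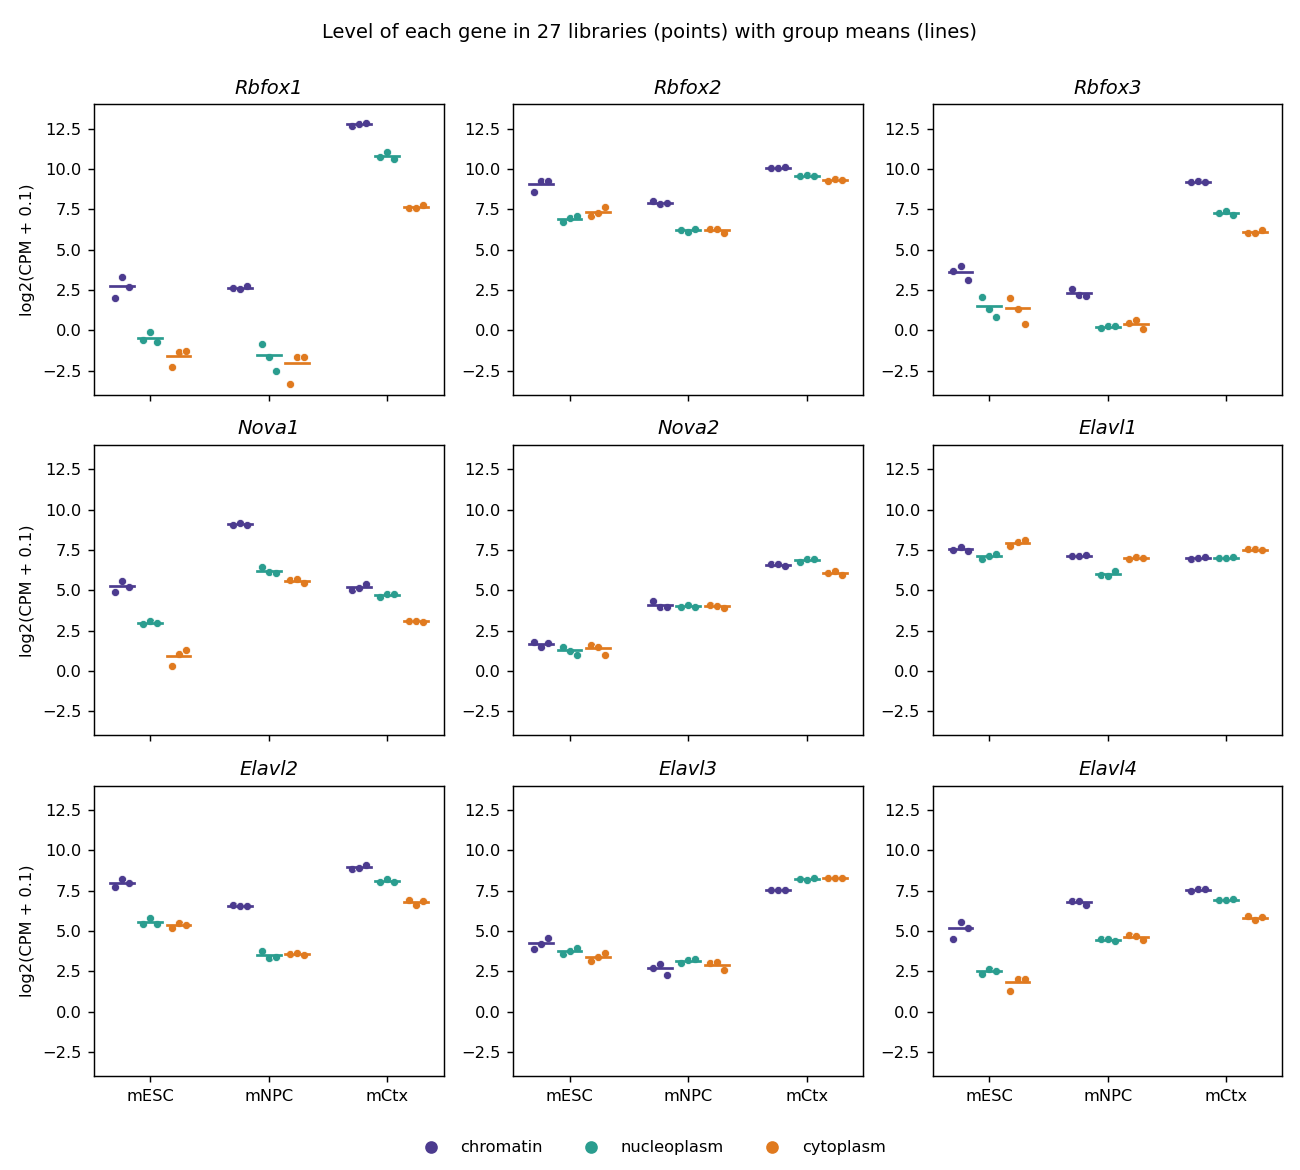
Level of each of the 9 genes as log2(CPM + 0.1) in mESC, mNPC and mCtx; points are libraries (3 per group), lines are group means, and colours are fractions. Rbfox1 reaches 6967 CPM in mCtx chromatin and stays at or below 6.64 CPM on average outside mCtx, Nova1 is highest in mNPC, and Elavl1 varies least between groups.

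The 2 Nova genes had different high points. Nova1 was at 519, 580 and 530 CPM in mNPC chromatin, against 29.9, 47.1 and 36.5 in mESC and 32.5, 34.7 and 42.1 in mCtx. The progenitors stood far above both, and mESC and mCtx overlapped. In cytoplasm its order was mNPC at 48 ± 3.96 CPM, mCtx at 8.37 ± 0.244 and mESC at 1.82 ± 0.628, with no overlap. Nova2 rose stepwise across the 3 cell types in cytoplasm instead, from 3.01, 2.73 and 1.88 CPM in mESC to 16.8, 16.4 and 14.8 in mNPC and 67.4, 73.4 and 61.9 in mCtx. Its highest group was mCtx nucleoplasm, with 108, 122 and 122 CPM, where it lay above mCtx chromatin at 95.6 ± 5.31.

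The leading Nova gene therefore differed between progenitors and neurons. Nova1 made up 98.5% ± 0.302 of the pair's TPM in mNPC chromatin, 89.7% ± 4.46 in nucleoplasm and 86.6% ± 1.73 in cytoplasm. In mCtx its share was 40.2% ± 6, 12.1% ± 2.73 and 13.5% ± 2.35 in the same order. In mESC cytoplasm the pair summed to only 0.31 ± 0.0458 TPM, and Nova1 held 37%, 50% and 72.2% of it in the 3 libraries, too wide a spread to rank the pair. On counts per kb of span the pair was close to even in mNPC cytoplasm, with 48.7% ± 0.864 for Nova1, and Nova2 led in mCtx on both scales.

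Elavl1 varied least over the 9 groups and was the 1 member with its highest mean count in stem cells. Cytoplasm of mESC held 211, 255 and 275 CPM, that of mNPC 120, 132 and 126, and that of mCtx 186, 189 and 178. The 3 groups did not overlap, and the lowest of the 9 groups was mNPC nucleoplasm at 65.1 ± 6.68 CPM. It made up 85.4% ± 2.21 of the Elavl TPM in mESC cytoplasm, 76.3% ± 2.88 in mNPC and 21% ± 0.947 in mCtx.

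Elavl3 was low in both lines and, in neurons, was not highest in chromatin. The mCtx chromatin libraries had 186, 189 and 185 CPM, those of nucleoplasm 300, 288 and 305, and those of cytoplasm 312, 312 and 306. Chromatin was the lowest of the 3 fractions, and the nucleoplasm and cytoplasm libraries nearly met, at 305 and 306 CPM. In TPM nucleoplasm stood above cytoplasm, at 43.8 ± 3.89 against 22.9 ± 1.62, and chromatin was again lowest at 15.4 ± 1.36. In mESC and mNPC the 6 group means lay between 6.33 and 19 CPM. In cytoplasm Elavl3 held 39.8% ± 1.91 of the Elavl TPM of neurons, against 1.86% ± 0.341 in mESC and 2.57% ± 0.835 in mNPC.

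Elavl2 had its lowest counts in progenitors within each fraction, as did Rbfox2, Rbfox3 and Elavl3. Its cytoplasmic counts were 35.6, 45.4 and 41.6 CPM for mESC, 11.8, 12.3 and 11.1 for mNPC, and 120, 97.8 and 114 for mCtx, with no overlap. In mESC chromatin it reached 249 ± 42.8 CPM and was the largest Elavl gene by TPM, with 61.7% ± 0.189 of the family. In mCtx chromatin it led the family too, with 58.8% ± 1.03 of the TPM. In mNPC chromatin it held 37.6% ± 3.36 and overlapped Elavl4 at 33.6% ± 3.87. The measure mattered here, since on counts per kb Elavl1 led in mESC and mNPC chromatin, with 65.9% ± 3.51 and 69.2% ± 2.09, and Elavl3 in that of mCtx, with 39.4% ± 1.45.

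Elavl4 was the 1 Elavl gene that was higher in progenitors than in stem cells. Its mESC cytoplasm libraries had 2.31, 4.04 and 3.99 CPM, those of mNPC 26.6, 25.3 and 21.8, and those of mCtx 59.5, 51.8 and 58.3, with no overlap. In mNPC chromatin, at 110 ± 11.2 CPM, it was above mCtx cytoplasm and below mCtx nucleoplasm at 122 ± 2.33. It held 14.3% ± 2.96 of the Elavl TPM in mNPC cytoplasm and 1.24% ± 0.311 in mESC cytoplasm.

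**Figure D2:**
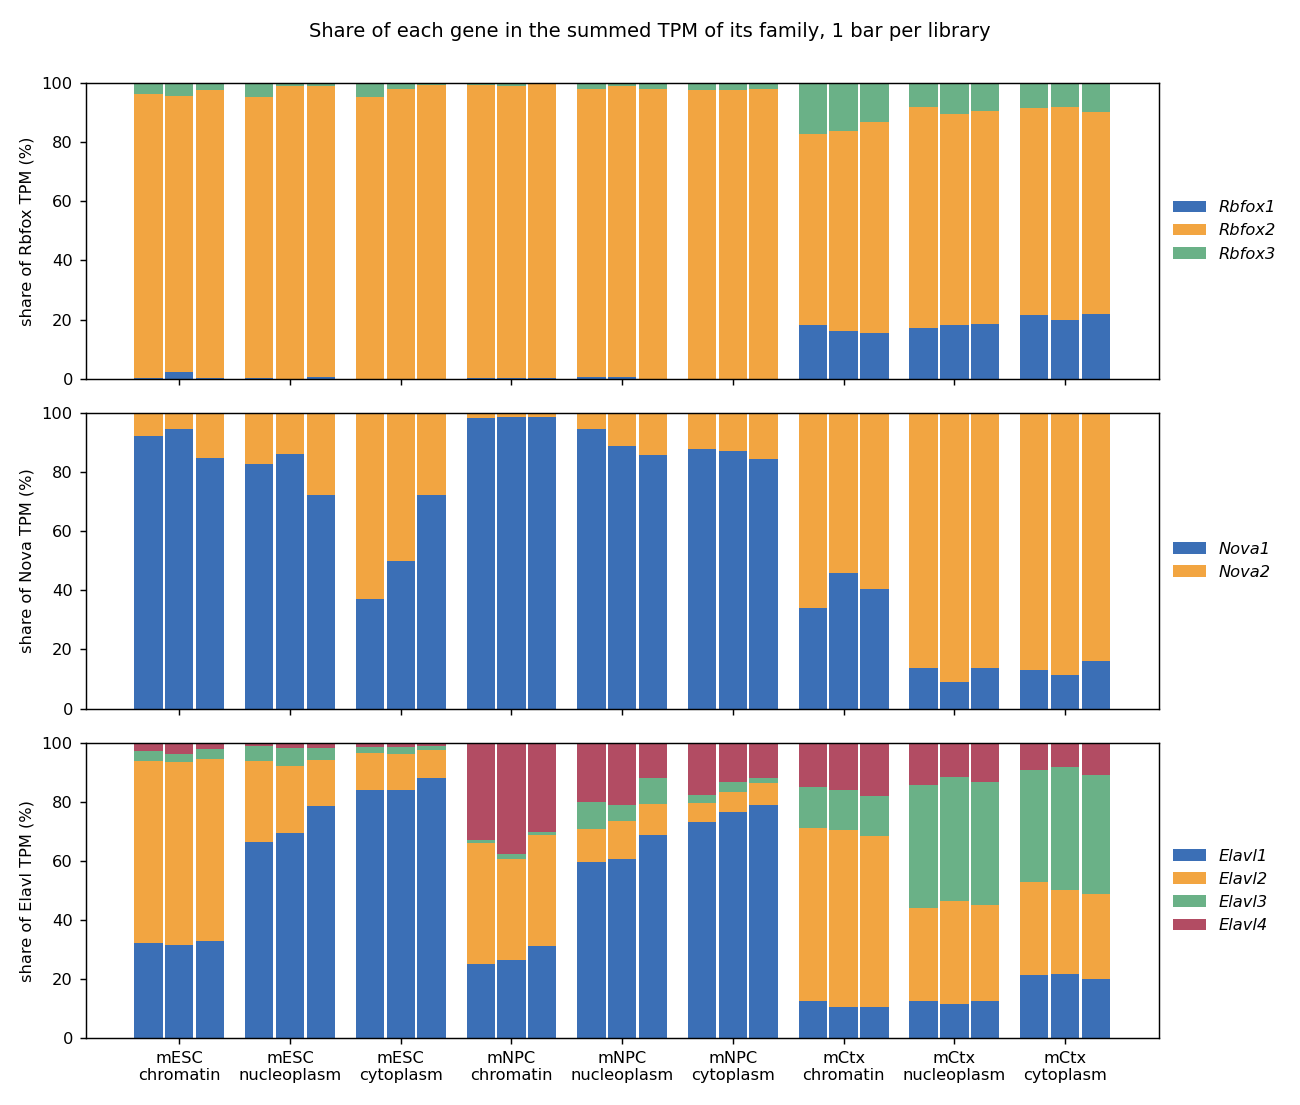
Share of each gene in the summed TPM of its family, in percent, with 1 bar for each of the 27 libraries. Rbfox2 fills 95.6% or more of the Rbfox bar on average outside mCtx, the Nova bar passes from mostly Nova1 in mNPC to mostly Nova2 in mCtx, and Elavl3 appears as a large share in mCtx nucleoplasm and cytoplasm.

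Ranked by TPM within the cytoplasm, the 9 genes stood in a different order in each cell type. In mESC, Elavl1 (56.8 TPM) was first, followed by Rbfox2 (22.2), Elavl2 (7.41) and Elavl3 (1.2), which overlapped Elavl4 (0.803), and Elavl4 and the other 4 were below 1 TPM. In mNPC, Elavl1 (13.8) was again first, and Rbfox2 (4.52), Nova1 (3.02) and Elavl4 (2.63) followed with neighbours that overlapped. In mCtx, Rbfox2 (57.8) led, then Elavl3 (22.9), then Rbfox1 (17.4) and Elavl2 (17), which overlapped, then Elavl1 (12.1), Rbfox3 (7.22), Elavl4 (5.45), Nova2 (2.43) and Nova1 (0.377). Each mCtx neighbour other than Rbfox1 and Elavl2 was separate over the 3 libraries.

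The comparison of progenitors with stem cells asks which of these regulators differ between the mNPC and mESC lines. Line, medium and origin differ between the cell types as well and cannot be told apart from cell type. In cytoplasm 3 members were higher in mNPC and 5 lower, of 9, while 76% of the 18249 genes passed in either direction, 36.5% higher and 39.4% lower. Nova1 was higher by 4.73 on the log2 scale (SE 0.20, adjusted p = 2.32e-17 in edgeR), Elavl4 by 2.84 (SE 0.21) and Nova2 by 2.65 (SE 0.15). The lower genes were Elavl2 at -1.80 (SE 0.14), Rbfox2 at -1.14 (SE 0.16), Rbfox3 at -1.05 (SE 0.34), Elavl1 at -0.98 (SE 0.11) and Elavl3 at -0.48 (SE 0.17, edgeR adjusted p = 0.0143). The call of Rbfox3 rested on 1 library: without mESC cytoplasm replicate 1 it was -0.55 with an edgeR adjusted p of 0.163. That of Elavl3 was lost without mESC cytoplasm replicate 3 (-0.35) or mNPC cytoplasm replicate 3 (-0.35). Rbfox1 did not pass, at -0.73 with a 95% confidence interval from -2.31 to 0.85, an interval set by the 7 to 12 reads per group.

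In chromatin and in nucleoplasm the same 3 genes were higher and the same 5 lower, with 76.5% of all genes passing in chromatin (33.8% higher, 42.7% lower) and 77.2% in nucleoplasm (35.7% higher, 41.5% lower). Nova1 had log2 fold changes of 3.84 (SE 0.16) and 3.23 (SE 0.17), Nova2 of 2.44 (SE 0.15) and 2.78 (SE 0.16), and Elavl4 of 1.62 (SE 0.17) and 2.00 (SE 0.20). With TPM the chromatin difference of Nova2 was 0.12 and did not pass (limma adjusted p = 0.233), and the nucleoplasm differences of Elavl4 and Rbfox3 were 0.44 and -0.24 (limma adjusted p = 0.0689 and 0.205). With rescaled TPM the chromatin difference of Rbfox2 was -0.05 (limma adjusted p = 0.738). The nucleoplasm difference of Rbfox1 was -1.38 (edgeR adjusted p = 0.0531) and passed in 4 of the 27 fits that left out 1 library.

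Neurons against progenitors separated the Rbfox and Elavl genes from Nova1. In cytoplasm 8 members rose and 1 fell, of 9, where 66% of all genes passed, 32.6% higher and 33.4% lower. Rbfox1 was higher by 10.44 on the log2 scale (SE 0.40, 95% confidence interval 9.67 to 11.22, edgeR adjusted p = 6.45e-18), Rbfox3 by 5.78 (SE 0.29), Elavl3 by 5.37 (SE 0.18), Elavl2 by 3.24 (SE 0.15), Rbfox2 by 3.10 (SE 0.17), Nova2 by 2.08 (SE 0.13) and Elavl4 by 1.20 (SE 0.18). Nova1 was the 1 member that fell, at -2.52 (SE 0.17, adjusted p = 4.1e-13 in edgeR). Elavl1 was higher by 0.55 (SE 0.11) on counts, but its sign turned with TPM (-0.17) and rescaled TPM (-0.41), neither of which passed.

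In nucleoplasm the same 8 genes were higher and Nova1 lower, with 71.8% of all genes passing (36.9% higher, 34.9% lower), though Elavl1 was at 0.98 on counts and -0.04 with rescaled TPM. In chromatin 7 were higher and Nova1 lower, with 69.4% passing (30.2% higher, 39.2% lower), and Elavl1 did not pass, at -0.13 with a 95% confidence interval from -0.34 to 0.08 (1.37 with TPM, where it passed). The log2 fold change of Nova1 was -3.90 (SE 0.16) in chromatin and -1.52 (SE 0.15) in nucleoplasm. The rise of Elavl4 was 0.78 (SE 0.17) in chromatin and 2.47 (SE 0.18) in nucleoplasm, and that of Elavl2 was 2.40 (SE 0.14) and 4.60 (SE 0.16). The differences between chromatin and nucleoplasm in these changes were not tested.

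Neurons against stem cells repeat values already given from the other end, since the comparisons share libraries. In cytoplasm 8 members were higher and Elavl1 lower (-0.42, SE 0.11), with 81.7% of all genes passing (40.1% higher, 41.6% lower). In chromatin 7 were higher and Elavl1 lower (-0.55, SE 0.11, but -0.12 and not passing with TPM), with 80.3% passing (33% higher, 47.4% lower). In nucleoplasm 8 were higher, with 82.2% passing (38.8% higher, 43.4% lower), and Elavl1 did not pass on counts (-0.11) but was lower with TPM (-0.75, limma adjusted p = 0.0173) and rescaled TPM (-1.16, limma adjusted p = 1.03e-05). On counts Nova2 had the largest change after Rbfox1 and Rbfox3 in nucleoplasm, 5.65 (SE 0.16). With log2(TPM + 1), Elavl3 (4.10) and Elavl4 (3.29) exceeded its 3.18, but Nova2 was at only 0.127 TPM in mESC nucleoplasm. The 1 added understates the change of so low a gene, so these TPM values do not rank these genes. In cytoplasm the 4.72 (SE 0.16) of Nova2 stood beside 4.89 (SE 0.18) for Elavl3 and 4.04 (SE 0.21) for Elavl4. Nova1 did not pass in chromatin (-0.06, 95% confidence interval -0.35 to 0.24, and 0.66 with TPM), and was higher by 1.71 (SE 0.17) in nucleoplasm and 2.21 (SE 0.21) in cytoplasm. Neither of these last passed with TPM (0.53 and 0.24, limma adjusted p = 0.0859 and 0.577).

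**Figure D3:**
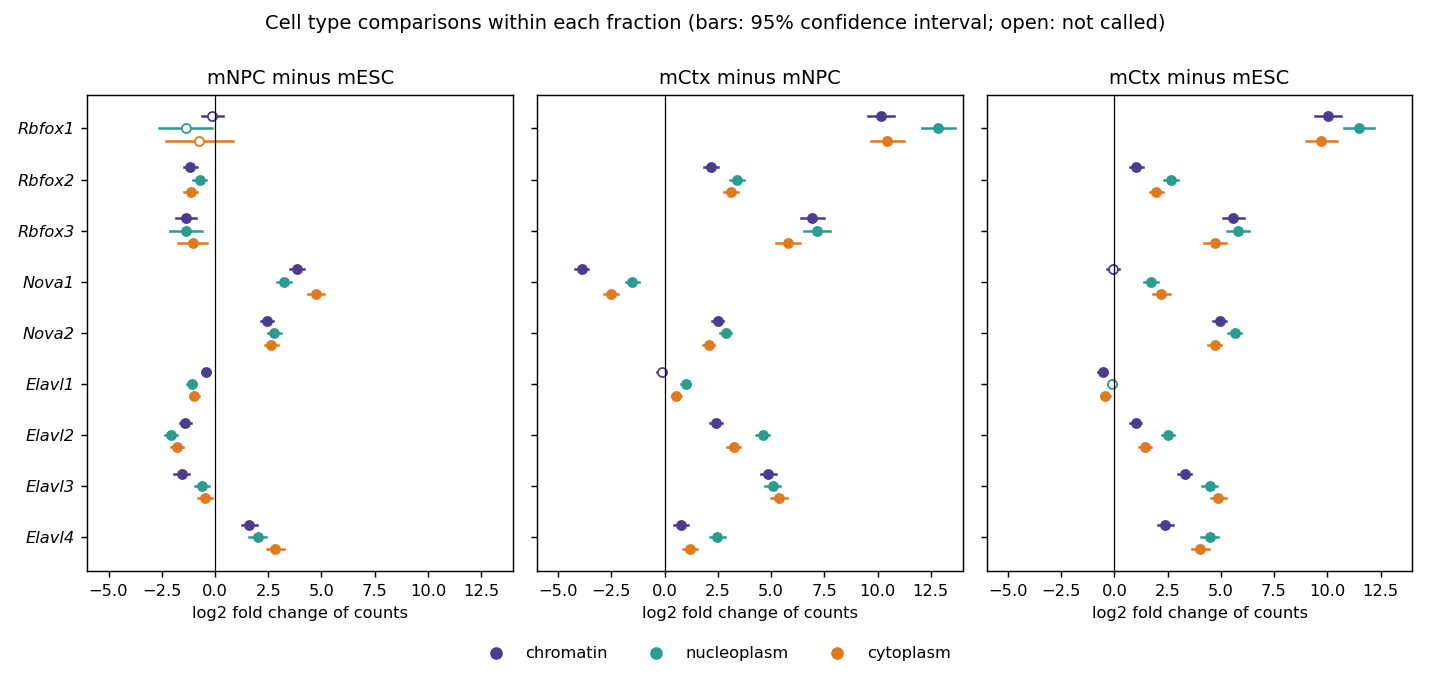
Log2 fold changes of counts between cell types for the 9 genes, in chromatin, nucleoplasm and cytoplasm, with 95% confidence intervals as bars and open points for genes that did not pass. Nova1 alone lies to the right in mNPC minus mESC and to the left in mCtx minus mNPC in all 3 fractions; the sign of Elavl1 in mCtx minus mNPC depends on the scale in all 3 fractions.

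Chromatin against cytoplasm asks where in the cell the counts of each gene are concentrated. On counts, 7 members were higher in chromatin and 1 lower in mESC (77.5% of all genes passed, 44.6% higher and 32.9% lower), 6 were higher in mNPC (69.5%, 37% higher and 32.5% lower), and 7 were higher and 2 lower in mCtx (73.3%, 35.6% higher and 37.6% lower). Rbfox1 was higher by 4.79 (SE 0.40), 5.41 (SE 0.45) and 5.12 (SE 0.25) in mESC, mNPC and mCtx, Nova1 by 4.39 (SE 0.20), 3.50 (SE 0.16) and 2.12 (SE 0.17), and Elavl2 by 2.61 (SE 0.14), 3.01 (SE 0.15) and 2.17 (SE 0.14). Rbfox2, at 1.70 in mESC and 0.77 in mCtx, turned to -0.87 and -0.53 with rescaled TPM. Rbfox3, at 2.25 in mESC and 1.96 in mNPC, turned to -0.04 and -0.13, and Elavl4, at 3.38 in mESC, to -0.08. The genes of 37.0 to 40.3 kb had the smallest differences within each cell type. Nova2 was at 0.29, 0.08 and 0.50, of which the last passed (SE 0.12, and it turned to -0.06 with total-count scaling and -0.43 with rescaled TPM). Elavl1 was at -0.40 (SE 0.11), 0.15 (-1.51 with TPM) and -0.53 (SE 0.11), of which the first and last passed, the first turning to 0.07 with total-count scaling and the last to 0.03 with TPM. Elavl3 was higher in chromatin of mESC, by 0.86 (SE 0.16), not called in mNPC (-0.23) and lower in chromatin of mCtx, by -0.73 (SE 0.15), though the first turned to -0.31 with rescaled TPM.

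On TPM, which counts reads per transcript length, the gap between chromatin and cytoplasm was smaller for most members. For members under 1 TPM the 1 added before the log keeps the gap small whatever the ratio. Rbfox1 was such a case, at 0.183 TPM in chromatin against 0 in cytoplasm of mESC and 0.0233 against 0 in mNPC. In mESC 3 members passed (74.2% of 25256 genes), Nova1 (1.15), Elavl2 (1.69) and Elavl1 (-1.93), and Rbfox2 was at -0.16. In mNPC 4 members were higher in chromatin and 2 lower (60.8%), and in mCtx 7 were higher and 1 lower (80.1%). Elavl2 was higher in chromatin in all 3 cell types on both scales, by 1.69, 1.59 and 1.88 with TPM and by 0.97, 1.28 and 0.42 with rescaled TPM. Nova1 was also higher in all 3 on each of these scales. Rbfox1 in mCtx was higher by 0.63 with TPM and lower, at -0.80, with rescaled TPM, so its direction on a transcript scale depends on the scaling.

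**Figure D4:**
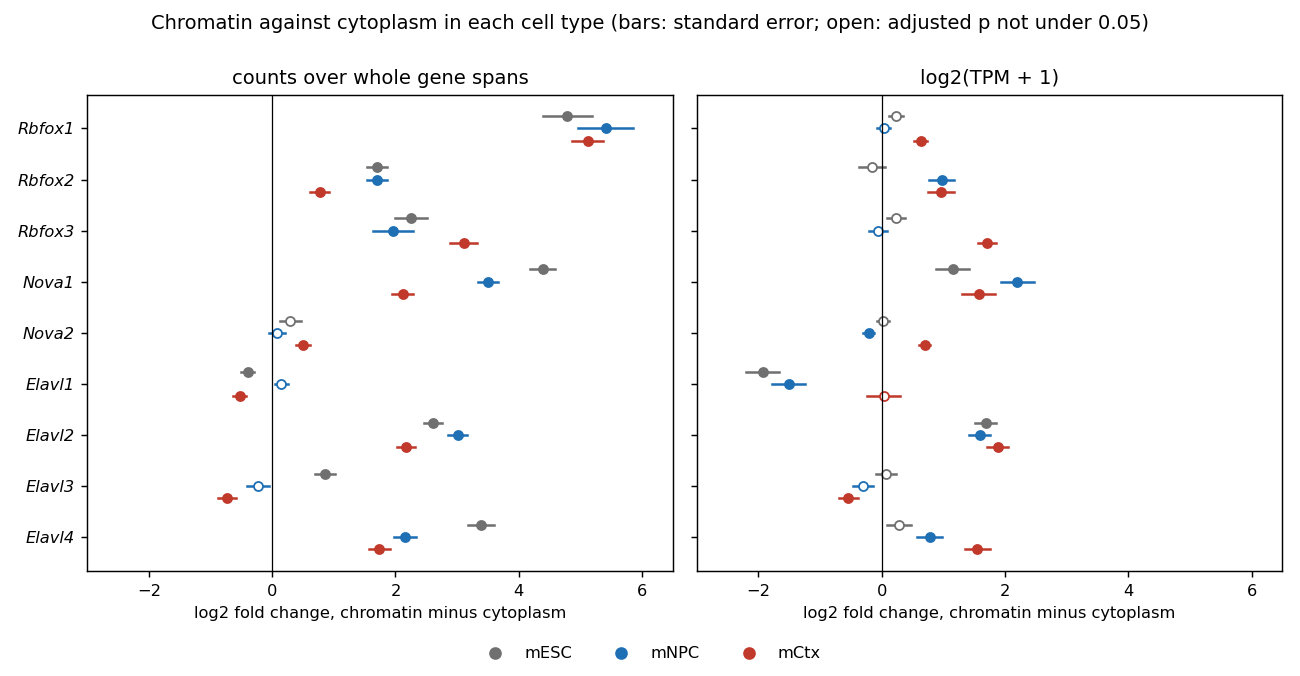
Log2 fold changes of chromatin over cytoplasm in mESC, mNPC and mCtx for the 9 genes, from counts over whole gene spans at left and from log2(TPM + 1) at right, with standard errors as bars and open points where the adjusted p was not under 0.05. Rbfox1 lies near 5 on counts and between 0.03 and 0.63 on TPM, where with rescaled TPM its mCtx value turns negative (-0.80), and Elavl2 lies to the right in all 3 cell types in both panels. Rbfox1 was at 0.183 TPM in mESC chromatin and 0.0233 in that of mNPC, so log2(TPM + 1) can show little difference there.

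Nucleoplasm against cytoplasm compares the soluble RNA on each side of the nuclear membrane. It gave 5 called members in mESC, 3 higher and 2 lower (63.1% of all genes passed, 29.9% higher and 33.2% lower), 2 in mNPC, Nova1 higher by 0.62 (SE 0.15) and Elavl1 lower by -0.95 (SE 0.11; 50.1%, 22.6% higher and 27.5% lower), and 7 in mCtx, 6 higher and 1 lower (58.2%, 29.6% higher and 28.6% lower). In mESC the count fell to 3 without cytoplasm replicate 1, where Rbfox1 (1.04) and Elavl4 (0.45) no longer passed, and Elavl4, at 0.68 on counts, was at -0.28 with TPM. Rbfox1 was also lost without cytoplasm replicate 2 or 3 or nucleoplasm replicate 1 or 2 of mESC, and Rbfox2 (-0.43) without cytoplasm replicate 3 or nucleoplasm replicate 1. With the replicate number as a block, by which the mESC libraries are paired, Elavl3 passed as well (0.37, edgeR adjusted p = 0.00559). In mNPC Nova1 was at 0.02 with TPM and 0.41 with rescaled TPM (limma adjusted p = 0.168), neither of which passed. Elavl4 did not pass on counts in mNPC (-0.16) but was lower with TPM (-0.83, limma adjusted p = 0.0027) and rescaled TPM (-0.65, limma adjusted p = 0.00335). In mCtx Rbfox1 was higher in nucleoplasm by 3.17 (SE 0.23), Nova1 by 1.62 (SE 0.17), Elavl2 by 1.30 (SE 0.13), Rbfox3 by 1.18 (SE 0.21), Elavl4 by 1.11 (SE 0.17) and Nova2 by 0.79 (SE 0.12). Elavl3 did not pass on counts (-0.06) and was higher in nucleoplasm with TPM (0.91, limma adjusted p = 5.45e-05), but at -0.19 with rescaled TPM. With rescaled TPM, Rbfox1 (-0.40), Elavl2 (-0.11) and Rbfox3 (-0.09) turned negative there. Elavl1 was lower in nucleoplasm than in cytoplasm in all 3 cell types on counts, by -0.84, -0.95 and -0.53 (SE 0.11 in each), though in mCtx TPM gave 0.09.

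Nucleoplasm against chromatin gave 9 members lower in mESC (66.3% of all genes passed, 30% higher and 36.3% lower), 7 lower and 1 higher in mNPC (66%, 32.5% higher and 33.5% lower) and 6 lower and 2 higher in mCtx (57.1%, 30.6% higher and 26.5% lower). The higher member in mNPC was Elavl3, by 0.47 (SE 0.18, edgeR adjusted p = 0.0269), a call lost without mNPC chromatin replicate 3 (0.30), nucleoplasm replicate 2 (0.46) or nucleoplasm replicate 3 (0.42). In mCtx the higher members were Elavl3, by 0.67 (SE 0.15), and Nova2, by 0.29 (SE 0.12, edgeR adjusted p = 0.0418). The call of Nova2 was lost without chromatin replicate 1 or 3 or nucleoplasm replicate 2 or 3 of mCtx. Nova2 in mESC (-0.42, edgeR adjusted p = 0.0374) was not called without 1 of 4 libraries, chromatin replicate 1 or 3 or nucleoplasm replicate 2 or 3, and was at 0.03 with rescaled TPM. With rescaled TPM, Elavl1 (0.75) and Rbfox3 (0.06) in mNPC and Rbfox1 and Rbfox2 (0.40 each) in mCtx also turned from lower on counts to higher. Elavl3 in mESC and Nova1 in mCtx each lost their call without chromatin replicate 3 (-0.29 and -0.37). In mESC nucleoplasm, Elavl3 was lower than in chromatin by -0.50 (SE 0.16) on counts but at 0.18 with TPM and 0.45 with rescaled TPM, and Elavl1 was lower by -0.44 (SE 0.11) on counts but at 0.69 with TPM and 1.21 with rescaled TPM.

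Whether the chromatin-to-cytoplasm ratio itself differed between cell types was tested as a difference of the 2 contrasts. From mESC to mNPC it differed for 4 members (40.2% of all genes passed), from mNPC to mCtx for 5 (34%) and from mESC to mCtx for 5 (50.2%). With the replicate number as a block, which pairs the mESC libraries, Elavl2 passed too from mESC to mNPC (0.41, edgeR adjusted p = 0.0492) and from mESC to mCtx (-0.43, edgeR adjusted p = 0.0242). From mNPC to mCtx the block added Nova2 (0.43, edgeR adjusted p = 0.0135), Elavl3 (-0.50, edgeR adjusted p = 0.0119) and Elavl4 (-0.42, edgeR adjusted p = 0.00702). Nova1 passed in all 3 comparisons, at -0.89 (SE 0.25), -1.38 (SE 0.22) and -2.27 (SE 0.26, edgeR adjusted p = 5.14e-08), so that on counts its ratio was largest in mESC and smallest in mCtx. With log2(TPM + 1) the first was 1.05 and the last 0.42. Nova1 was at only 0.17 TPM in mESC cytoplasm, however, where the 1 added understates the mESC ratio. With a pseudocount of 0.1 the first did not turn and the last was 0.06 (limma adjusted p = 0.94). The direction on a TPM scale thus depends on the pseudocount. Rbfox2 had a smaller ratio in mCtx than in mNPC, by -0.92 (SE 0.22), and than in mESC, by -0.93 (SE 0.22), which with TPM were at -0.02 (limma adjusted p = 0.98) and 1.11. With rescaled TPM they were at -1.03 (limma adjusted p = 1.62e-05) and 0.35 (limma adjusted p = 0.065). Elavl3 had a smaller ratio in mCtx than in mESC by -1.59 (SE 0.22, edgeR adjusted p = 1.29e-06), and it kept that sign with TPM (-0.61) and rescaled TPM (-1.63). Elavl4 had a smaller ratio in mCtx than in mESC on counts, by -1.64 (SE 0.26), and a larger one with TPM (1.27). With rescaled TPM the difference of Elavl4 was 0.27 and did not pass (limma adjusted p = 0.337). On counts Rbfox3 was the 1 member called with a larger ratio in mCtx than in either line. The difference was 1.15 (SE 0.40, edgeR adjusted p = 0.0257) against mNPC and 0.86 (SE 0.34, edgeR adjusted p = 0.0351) against mESC. The latter turned to -0.16 with total-count scaling. It was not called in 8 of the 27 fits that left out 1 library and was 0.34 without mESC cytoplasm replicate 1. The difference against mNPC was not called in 4, those without mNPC chromatin replicate 2 or 3 or mNPC cytoplasm replicate 1 or 2. With TPM the trait was not particular to Rbfox3. There 5 members passed as larger in mCtx than in mNPC and none as smaller, where 15781 of 25256 genes passed. Against mESC, 6 passed as larger and 1 as smaller, where 16025 genes passed.

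Other splicing regulators were taken as a list of 26 genes, from the Ptbp, Celf, Mbnl, Srrm, Khdrbs, Msi, Esrp and related families. In cytoplasm, 12 were higher and 12 lower in mNPC than in mESC (median log2 fold change -0.31, all genes -0.07), 13 higher and 7 lower in mCtx than in mNPC (0.81, all genes 0.00), and 16 higher and 8 lower in mCtx than in mESC (1.28, all genes -0.05). The shares of all genes in these 3 contrasts are those given for the members. With TPM the list had 5 higher and 10 lower (median -0.17, 44.1% of 25256 genes passing), 12 higher and 6 lower (0.16, 31.9%), and 13 higher and 10 lower (0.51, 50.6%), in the same order. Celf2, a regulator of neural and muscle splicing, was higher in mNPC than in mESC by 4.29 (SE 0.19), and Rbm24, a splicing regulator known from muscle, by 3.89 (SE 0.30). The epithelial regulators Esrp1 and Esrp2 were at 40.8 ± 5.54 and 13.4 ± 0.671 CPM in mESC. Esrp1 was at 0.0534 ± 0.0539 CPM in mNPC and 0.168 ± 0.082 in mCtx, and passed as lower in both. Esrp2 had 0 counts in all 3 libraries of mNPC and of mCtx cytoplasm, at least 75.4-fold and 67.1-fold lower than in mESC when a floor of 3 counts per library is used. Srrm4, which drives neuronal microexon inclusion, was at 62.9 ± 4.34 CPM in mCtx and 0.291 ± 0.023 in mNPC (7.71, SE 0.27), and Khdrbs2 was higher in mCtx than in mNPC by 7.16 (SE 0.36) and than in mESC by 6.74 (SE 0.34). Celf3 was higher in mCtx than in mESC by 8.14 (SE 0.23). Qk and Mbnl2 were lower in mCtx than in mNPC, by -2.11 (SE 0.26) and -1.95 (SE 0.15).

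The 9 genes for proteins known to join Rbfox in its large splicing complex, such as Hnrnpm, Matr3 and Ddx5, were mostly lower outside stem cells in cytoplasm, but not in each comparison of the other fractions. Of all 18249 genes, 6668 were higher and 7196 lower in mNPC than in mESC cytoplasm. For mCtx these numbers were 7313 and 7588 against mESC and 5951 and 6092 against mNPC. The shares of all genes in the other fractions are those given for the members. In cytoplasm 1 was higher and 7 lower in mNPC than in mESC (median -0.54; 8 lower with TPM). In the same fraction none was higher and 8 were lower in mCtx than in mESC (median -0.89, all genes -0.05), and none was higher and 6 were lower than in mNPC (median -0.48), though with TPM 2 were lower than in mNPC (median -0.03). In chromatin 2 were higher and 3 lower in mNPC than in mESC (median 0.21, and -0.80 with TPM). There none was higher and 7 were lower in mCtx than in mESC (median -0.59, all genes -0.38, and 0.00 with TPM). Against mNPC, 1 was higher and 6 were lower in mCtx chromatin (median -0.58, and 0.93 with TPM). In nucleoplasm 2 were higher and 2 lower in mCtx than in mESC (median -0.01), and 3 were higher and none lower with TPM (median 0.42). Against mESC, 2 were higher and 5 lower in mNPC nucleoplasm (median -0.22, and -1.59 with TPM). Against mNPC, 3 were higher and 2 lower in mCtx nucleoplasm (median 0.16, and 2.08 with TPM). Hnrnpm was at 417 ± 82.2 CPM in mESC, 191 ± 20.5 in mNPC and 85.3 ± 10.8 in mCtx, log2 fold changes of -1.13 (SE 0.14) and -1.16 (SE 0.14). Ddx5, an RNA helicase, was lower in mCtx than in mESC by -1.14 (SE 0.13), Nono was lower in mCtx than in mNPC by -0.99 (SE 0.13), and Matr3 was lower in mNPC than in mESC by -0.93 (SE 0.15). Hnrnpc was the 1 gene of the list that was higher in mNPC than in mESC, by 0.62 (SE 0.12), and at -0.33 with TPM.

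Genes known as splicing or stability targets of the 3 families are summarised by gene level only, since the tables do not hold exon counts. Of 14 Rbfox targets, 10 were higher and 3 lower in mCtx than in mNPC cytoplasm (median 3.91, all genes 0.00), where 32.6% of all genes were higher and 33.4% lower. With TPM 11 were higher and 1 lower (median 1.83, 31.9% of all genes passing). Between mNPC and mESC, Nrcam (6.46, SE 0.32) and Cd44 (5.68, SE 0.27) were higher and Fn1 (-5.75, SE 0.21) and Ank3 (-2.36, SE 0.21) lower, with 5 higher and 7 lower in all. Of all 18249 genes, 6668 were higher and 7196 lower there. Snap25, a synaptic membrane fusion gene, was higher in mCtx than in mESC by 10.10 (SE 0.44), while the actin regulator Enah (-2.00, SE 0.15) and the catenin gene Ctnnd1 (-1.75, SE 0.17) were lower. Camta1 (-0.75, SE 0.11, but 0.65 with TPM) and Cd44 (-0.74, SE 0.18) were lower in mCtx than in mNPC.

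Of 9 Nova targets, 8 were higher and none lower in mCtx than in mNPC cytoplasm (median 3.84, and the same with genes at 0 set to their bound), against 32.6% and 33.4% of all genes. With TPM 7 were higher and none lower (median 1.33). Glra2, a glycine receptor subunit, had 0 counts in mNPC and mESC cytoplasm and 85.6 ± 8.72 CPM in mCtx, at least 480-fold and 493-fold higher against the floor of 3 counts per library. Between mNPC and mESC, 3 were higher, 3 lower and 3 did not pass, where 13864 of all 18249 genes passed. Dcc (7.70, SE 0.42) and Agrn (1.82, SE 0.18) were higher and Epb41l3 (-1.13, SE 0.22) lower. Of 11 Elavl targets, 5 were higher and 3 lower in mCtx than in mNPC cytoplasm (median 0.85), and the 8 that passed stand beside 66% of all genes, a share near that background. With TPM 4 of 10 were higher and 3 lower (median 0.51). Gap43, whose RNA is known to be stabilised by HuD, was at 2.75 ± 0.85, 61.6 ± 11 and 922 ± 59.1 CPM in mESC, mNPC and mCtx, and Ank3 was at 17.6 ± 3.83, 3.38 ± 1.12 and 236 ± 5.69. The immediate early gene Fos was at 40.2 ± 21.6 CPM in mNPC and 6.56 ± 0.984 in mCtx (-2.61, SE 0.50), and the cell cycle inhibitor gene Cdkn1a at 60.9 ± 13.1 and 14.1 ± 1.59 (-2.11, SE 0.29). Calca was at 10 ± 3.38, 0.108 ± 0.108 and 0.0833 ± 0.144 CPM in mESC, mNPC and mCtx.

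The letters of the binding motifs also occur in the members' own transcripts. Matches were counted on the sense strand only, overlapping matches included. The hexamer TGCATG, written as DNA, was found in 7 of the 9 representative transcripts, with 6 matches in Nova1 and 3 in Nova2, and in 50.4% of 21924 protein-coding transcripts. The AU-rich pentamer ATTTA was in all 9 and in 74.5% of transcripts, with 30 matches in the 7154 bases of Nova1, 18 in the 5743 of Elavl1 and 3 in the 8372 of Nova2. TTTNTTT, the U-rich form counted, had 54 matches in Elavl1 (9.4 per kb) and none in Rbfox3, against 1.66 per kb over all transcripts. TCATNTCAT, a spaced Nova repeat, was in the transcripts of Nova1 and Nova2 only among the 9, with 1 match each, and in 6.1% of all transcripts. The vM21 transcript used for Rbfox1 is 1407 bases long with 3 bases after its coding part, so it shows little beyond the coding sequence.

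For each member the genes with the most similar pattern over the 9 groups were found by Pearson's r of mean log2(CPM + 0.5) among 13119 genes at 10 CPM or more in at least 1 group, as a description, since the 9 means share their libraries. For Rbfox1 these were Dlg2 (0.998), Dync1i1 (0.997) and March1 (0.997), for Rbfox2 Dtnbp1 (0.980), Smim17 (0.980) and Erc2 (0.975), and for Rbfox3 Srrm4 (0.996), Klhl29 (0.995) and Kif26b (0.995). For Nova1 they were Erbin (0.978), Etv1 (0.973) and Crb1 (0.971), and for Nova2 Gucy1a1 (0.997), Rnf112 (0.995) and Mn1 (0.991). For Elavl1 they were Metap1 (0.937), Rgs19 (0.932) and Mier2 (0.932), for Elavl2 Fmn1 (0.990), Kif2a (0.987) and Ncoa7 (0.986), for Elavl3 Cacna1i (0.996), Doc2b (0.995) and Vstm2l (0.995), and for Elavl4 Umad1 (0.996), Psd3 (0.994) and Zfp202 (0.992). Among the members themselves, Rbfox1 and Rbfox3 were the most alike pair (0.99), followed by Rbfox2 and Elavl2 (0.96), while the Nova pair reached 0.26 and Nova1 and Elavl1 were at -0.54.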

How the data were processed

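RNA of 27 libraries was analysed, 3 for each of 9 groups set by the labels. The authors deposited a table of whole-number read counts per gene; each gene's listed length equals its genomic span, so intronic reads are included. The authors' deposited chromatin columns, entered under the unit estimated counts only because of their name, hold whole numbers as well. The authors also deposited TPM per gene. STAR, kallisto, featureCounts and mm10 are named, per the submitters' processing notes, without roles or versions, and these are not given in the sources used here. IDs were named from GENCODE vM21 (35533 of 37332 and 53274 of 53379).

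Counts were tested with edgeR 4.0.16 (R 4.3.3; quasi-likelihood, TMM scaling, filterByExpr, 9 groups, 18 residual degrees of freedom, 21 contrasts), with Benjamini-Hochberg adjustment over 18249 genes and a threshold of 0.05; 95% confidence intervals are normal intervals from the SE. TPM was tested with limma 3.58.1 on log2(TPM + 1) for 25256 genes at 1 TPM or more in at least 3 libraries; these log2 changes understate those of low genes. Alternatives were DESeq2 1.42.0, other scalings and filters, a pseudocount of 0.1, a replicate block and each library left out. Rescaled TPM (median ratio), leaving out all mESC replicate 1 libraries, and family shares per kb of span were added after seeing the data. Coding sequences were aligned with mafft 7.526. No libraries were identical. The edgeR step was tested on simulated data. Same-numbered mESC fractions deviated together (r 0.28 to 0.66), so these numbers pair the mESC libraries. Those of mNPC did so weakly at most (-0.01 to 0.19), so a weak pairing there is possible. Those of mCtx (-0.05 to 0.08) and of different cell types (-0.06 to 0.06) did not. All 9 members are described; from each list, at most the 2 largest passing rises and falls per cytoplasmic contrast, at a mean of 10 CPM or more in a group, are named. Members and lists were chosen with earlier results of these data known. Some genes that the naming rule selects are not reported here.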

Additional observations from a re-analysis of the deposited data

Results flagged for a closer look

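The chromatin-to-cytoplasm difference on counts differed between cell types, by edgeR's test of the difference itself, in 14 cases over the 9 genes and 3 pairs of cell types. Between mNPC and mESC 4 members passed, beside 7337 of all 18249 genes (3047 higher, 4290 lower). Between mCtx and mNPC 5 passed, beside 6204 genes (2227 higher, 3977 lower). Between mCtx and mESC 5 passed, beside 9157 genes (3221 higher, 5936 lower). With the replicate number as a block, Elavl2 also passed between mNPC and mESC (0.41) and between mCtx and mESC (-0.43). Between mCtx and mNPC the block added Nova2 (0.43), Elavl3 (-0.50) and Elavl4 (-0.42). Between mNPC and mESC the chromatin-to-cytoplasm difference was lower in mNPC for Nova1 (-0.89, SE 0.25, edgeR adjusted p = 0.00503), Elavl3 (-1.09, SE 0.24, edgeR adjusted p = 0.000709) and Elavl4 (-1.22, SE 0.27, edgeR adjusted p = 0.000577), and higher for Elavl1 (0.55, SE 0.15, edgeR adjusted p = 0.00444).

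Between mCtx and mNPC it was lower in mCtx for Rbfox2 (-0.92, SE 0.22, edgeR adjusted p = 0.00173), Nova1 (-1.38, SE 0.22, edgeR adjusted p = 2.44e-05), Elavl1 (-0.68, SE 0.15, edgeR adjusted p = 0.000915) and Elavl2 (-0.84, SE 0.19, edgeR adjusted p = 0.00133), and higher for Rbfox3 (1.15, SE 0.40, edgeR adjusted p = 0.0257).

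Between mCtx and mESC it was lower in mCtx for Rbfox2 (-0.93, SE 0.22, edgeR adjusted p = 0.000837), Nova1 (-2.27, SE 0.26, edgeR adjusted p = 5.14e-08), Elavl3 (-1.59, SE 0.22, edgeR adjusted p = 1.29e-06) and Elavl4 (-1.64, SE 0.26, edgeR adjusted p = 1.01e-05), and higher for Rbfox3 (0.86, SE 0.34, edgeR adjusted p = 0.0351). Of the 14, the signs that turned with TPM or rescaled TPM were those of Nova1 and Elavl4 between mNPC and mESC, Elavl1 and Elavl2 between mCtx and mNPC, and Rbfox2, Nova1 and Elavl4 between mCtx and mESC, and that of Nova1 between mCtx and mNPC with a pseudocount of 0.1. Rbfox3 between mCtx and mESC turned with total-count scaling.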

How the results depend on the processing

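Beside the TPM scales, most log2 fold changes of the 9 genes kept their side of the threshold. These were 185 with DESeq2, 186 with median-ratio size factors, 184 without the filter on low counts and 181 with the replicate block. In these fits no sign turned where the main value or the alternative passed. Turns of sign between values that both did not pass were not counted. The other scalings moved the median of all genes by -0.15 to 0.27 for median-ratio factors and -1.01 to 0.46 for total counts, and changes are relative to it. Leaving out 1 library at a time reversed no called value, lost 36 calls and gained 24, and the number of members called ran from 3 to 6 for nucleoplasm minus cytoplasm in mESC. The replicate block gained 8 calls and lost none, and the pairing is clear for mESC and at most weak for mNPC. Reads of introns enter the counts and depth limits Rbfox1 outside neurons, with 7 to 12 reads per cytoplasm group. The cause of the following changes was not tested, and the turns of sign are listed only where the main value or the alternative passed. With total-count scaling, signs turned for chromatin minus cytoplasm in mESC (Elavl1 0.07), chromatin minus cytoplasm in mCtx (Nova2 -0.06), ratio mCtx minus mESC (Rbfox3 -0.16 and Nova2 -0.81). With TPM, unfiltered TPM giving the same values except for Nova2 in mNPC, signs turned for mCtx minus mNPC in chromatin (Elavl1 1.37), mCtx minus mESC in chromatin (Nova1 0.66), mCtx minus mNPC in cytoplasm (Elavl1 -0.17), chromatin minus cytoplasm in mESC (Rbfox2 -0.16), nucleoplasm minus cytoplasm in mESC (Elavl4 -0.28), nucleoplasm minus chromatin in mESC (Elavl1 0.69 and Elavl3 0.18). It was so too for chromatin minus cytoplasm in mNPC (Rbfox3 -0.06, Nova2 -0.21 and Elavl1 -1.51), chromatin minus cytoplasm in mCtx (Elavl1 0.03), nucleoplasm minus cytoplasm in mCtx (Elavl1 0.09 and Elavl3 0.91), nucleoplasm minus chromatin in mCtx (Rbfox1 0.05 and Rbfox2 0.03). For the ratio it was so in mNPC minus mESC (Rbfox2 1.13, Nova1 1.05 and Elavl4 0.50), ratio mCtx minus mNPC (Rbfox1 0.59, Elavl1 1.54, Elavl2 0.29 and Elavl4 0.78), ratio mCtx minus mESC (Rbfox2 1.11, Nova1 0.42, Elavl1 1.97 and Elavl4 1.27). With TPM with a pseudocount of 0.1, signs turned for mCtx minus mNPC in chromatin (Elavl1 1.55), mCtx minus mESC in chromatin (Nova1 0.92), mCtx minus mNPC in cytoplasm (Elavl1 -0.18), chromatin minus cytoplasm in mESC (Rbfox2 -0.17), nucleoplasm minus cytoplasm in mESC (Elavl4 -0.67), nucleoplasm minus chromatin in mESC (Elavl1 0.72 and Elavl3 0.27). It was so too for chromatin minus cytoplasm in mNPC (Rbfox3 -0.35, Nova2 -0.63 and Elavl1 -1.69), nucleoplasm minus cytoplasm in mNPC (Nova1 -0.01), chromatin minus cytoplasm in mCtx (Elavl1 0.04), nucleoplasm minus cytoplasm in mCtx (Elavl1 0.09 and Elavl3 0.93), nucleoplasm minus chromatin in mCtx (Rbfox1 0.05 and Rbfox2 0.03). For the ratio it was so in mNPC minus mESC (Rbfox2 1.28 and Elavl4 0.45), ratio mCtx minus mNPC (Nova1 0.22 and Elavl1 1.73), ratio mCtx minus mESC (Rbfox2 1.13, Nova1 0.06, Elavl1 2.04 and Elavl4 1.18). With rescaled TPM, signs turned for mCtx minus mNPC in nucleoplasm (Elavl1 -0.04), mCtx minus mNPC in cytoplasm (Elavl1 -0.41), chromatin minus cytoplasm in mESC (Rbfox2 -0.87, Rbfox3 -0.04, Elavl3 -0.31 and Elavl4 -0.08), nucleoplasm minus cytoplasm in mESC (Elavl4 -0.34), nucleoplasm minus chromatin in mESC (Nova2 0.03, Elavl1 1.21 and Elavl3 0.45). It was so too for chromatin minus cytoplasm in mNPC (Rbfox3 -0.13, Nova2 -0.44 and Elavl1 -2.07), nucleoplasm minus chromatin in mNPC (Rbfox3 0.06, Nova2 0.41 and Elavl1 0.75), chromatin minus cytoplasm in mCtx (Rbfox1 -0.80, Rbfox2 -0.53 and Nova2 -0.43), nucleoplasm minus cytoplasm in mCtx (Rbfox1 -0.40, Rbfox3 -0.09 and Elavl2 -0.11), nucleoplasm minus chromatin in mCtx (Rbfox1 0.40 and Rbfox2 0.40). For the ratio it was so in mNPC minus mESC (Rbfox2 1.38, Nova1 1.05 and Elavl4 0.44), ratio mCtx minus mNPC (Elavl1 0.74), ratio mCtx minus mESC (Rbfox1 -0.94, Rbfox2 0.35, Nova2 -0.36, Elavl1 1.30 and Elavl4 0.27). With TPM, filtered or not, the number of members called was 3 for chromatin minus cytoplasm in mESC, 2 for nucleoplasm minus cytoplasm in mESC, 4 for nucleoplasm minus chromatin in mNPC, 5 for nucleoplasm minus chromatin in mCtx, 2 for ratio mNPC minus mESC. With TPM with a pseudocount of 0.1 the number of members called was 4 for chromatin minus cytoplasm in mESC, 3 for nucleoplasm minus cytoplasm in mESC, 5 for nucleoplasm minus chromatin in mNPC, 4 for nucleoplasm minus chromatin in mCtx, 1 for ratio mNPC minus mESC, 3 for ratio mCtx minus mNPC. With rescaled TPM the number of members called was 5 for chromatin minus cytoplasm in mESC, 2 for nucleoplasm minus cytoplasm in mESC, 3 for nucleoplasm minus chromatin in mESC, 3 for nucleoplasm minus cytoplasm in mCtx. With total-count scaling the number of members called was 5 for nucleoplasm minus chromatin in mCtx. With the replicate block the number of members called was 8 for ratio mCtx minus mNPC. Without mESC replicate 1 it was 8 members for ratio mCtx minus mNPC, which holds no mESC library but shares its estimate of the spread with the mESC groups. With unfiltered TPM the number of genes called was 23458 for mNPC minus mESC in chromatin, 24961 for mCtx minus mNPC in chromatin, 25431 for mCtx minus mESC in chromatin. It was 20684 for mCtx minus mNPC in nucleoplasm, 24612 for chromatin minus cytoplasm in mESC, 21878 for nucleoplasm minus chromatin in mESC. It was 26473 for chromatin minus cytoplasm in mCtx, 16769 for nucleoplasm minus cytoplasm in mCtx, 22860 for nucleoplasm minus chromatin in mCtx. It was 13701 for ratio mNPC minus mESC, 19673 for ratio mCtx minus mNPC, 20895 for ratio mCtx minus mESC. With TPM the number of genes called was 19133 for mCtx minus mNPC in chromatin, 20236 for chromatin minus cytoplasm in mCtx, 17569 for nucleoplasm minus chromatin in mCtx, 11254 for ratio mNPC minus mESC, 15781 for ratio mCtx minus mNPC, 16025 for ratio mCtx minus mESC. With TPM with a pseudocount of 0.1 the number of genes called was 20207 for chromatin minus cytoplasm in mCtx, 16339 for nucleoplasm minus cytoplasm in mCtx, 16671 for nucleoplasm minus chromatin in mCtx, 13669 for ratio mCtx minus mNPC, 13916 for ratio mCtx minus mESC. With total-count scaling the number of genes called was 9724 for ratio mCtx minus mNPC. With rescaled TPM the number of genes called was 11008 for ratio mCtx minus mNPC, 14345 for ratio mCtx minus mESC.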
